A study of Saccharomyces cerevisiae with 10 samples.

Results

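The 6 genes of the yeast Far complex, FAR3, FAR7, FAR8, VPS64 (also called FAR9), FAR10 and FAR11, were followed through the RNA of 5 strains. They were taken by gene name from a table of 5824 features, and all 6 had values in every library. The complex came to attention because FAR3 message was nearly lost in the strain carrying extra UTP6. The set was thus chosen by the FAR3 value in UTP6-OE, and that value and every contrast of FAR3 with UTP6-OE are given as a description without a test. The other 5 members, called partners here, entered by membership in the complex and not by their values, and their levels ask whether they changed where FAR3 was lost.

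All strains were built on BY4741, a haploid laboratory strain of mating type a. In each overexpression strain a centromeric plasmid of low copy number, with a URA3 marker, added the gene under its own promoter and terminator. These strains were LSM5-OE, TIF35-OE, PRP22-OE and UTP6-OE. LSM5 encodes a subunit of RNA-binding Lsm rings, TIF35 a subunit of translation initiation factor eIF3, UTP6 a component of the nucleolar machinery for small ribosomal subunits, and PRP22 a splicing helicase. WT was the control, which in the lifespan assays of the study carried the empty vector. For each of the 5 strains 2 independent cultures were grown without treatment in medium lacking uracil with 2% glucose and collected at an OD600 of 0.4. No mating pheromone was added. Strains were kept as stocks of individual transformant colonies, so the plasmid gene and any other trait of that colony cannot be told apart.

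In budding yeast, mating pheromone stops haploid cells in G1, and the Far complex keeps them from leaving that arrest too early. It is the yeast counterpart of the STRIPAK assemblies of animals, which bring a phosphatase of the PP2A family to its substrates. Beyond mating, the complex is known in yeast to oppose the kinase complex TORC2, to restrain mitophagy and to help end the DNA damage checkpoint. FAR8 resembles the striatin scaffold and FAR11 the STRIP proteins of animals. VPS64 and FAR10 are paralogs with a forkhead-associated domain and a membrane anchor, and FAR3 and FAR7 are small members.

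In the R64 reference of S288c, FAR3 (YMR052W) is an intronless reading frame of 615 bases and 204 codons on the forward strand of chromosome XIII, from 379586 to 380200. FAR7 (YFR008W, 666 bases, chromosome VI, 160535 to 161200) is of similar size. The others are longer. FAR10 (YLR238W, chromosome XII, 614755 to 616191) has 1437 bases, FAR8 (YMR029C, chromosome XIII, 328660 to 330231) has 1572 bases and VPS64 (YDR200C, chromosome IV, 854279 to 856093) has 1815 bases. FAR11 (YNL127W, chromosome XIV, 383987 to 386848) has 2862 bases. None of the 6 reading frames overlaps another annotated gene. The only other member on the same chromosome as FAR3 is FAR8.

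The stretch just before FAR3 is shown because its message is the one that was lost and because the locus is crowded with repeats. The window below runs from 250 bases before the start codon to 50 bases into the reading frame, at chrXIII:379336-379635 on the forward strand of R64. Capitals mark the 73 bases that belong to a tRNA gene (YNCM0022C, 379303 to 379408, reverse strand), which ends 177 bases before the FAR3 start.
FAR3: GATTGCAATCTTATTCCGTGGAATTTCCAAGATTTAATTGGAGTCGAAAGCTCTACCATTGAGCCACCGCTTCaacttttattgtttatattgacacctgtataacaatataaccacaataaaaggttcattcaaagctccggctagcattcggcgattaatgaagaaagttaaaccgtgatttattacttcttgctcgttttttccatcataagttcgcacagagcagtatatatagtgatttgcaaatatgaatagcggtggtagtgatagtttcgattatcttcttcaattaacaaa
Farther upstream the RefSeq annotation places long terminal repeats that end 387 and 524 bases before the start, and a Ty1 retrotransposon that ends 963 bases before it. Windows of the same length were searched on both strands for TGAAACA, the pheromone response element, for ACGCGT, the MCB element of G1 genes, and for CACGAAA, the SCB element. None of the 6 members held a match, while 7.50%, 3.07% and 4.20% of 6001 gene windows did, respectively.

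The values are FPKM, fragments scaled to transcript length and library size, and levels of different genes are compared on that per-length scale. From the spacing of low values the libraries were estimated to hold 13453571 to 17368263 fragments. The plasmid genes rose in their own strains, by 1.32 on the log2 scale for UTP6 in UTP6-OE, 1.95 for LSM5, 1.37 for TIF35 and 1.08 for PRP22. LSM5, a gene of 282 bases, was also higher in TIF35-OE (1.05, adjusted p = 0.0374) and was at 0.74 in UTP6-OE and 0.70 in PRP22-OE, which did not pass. Markers of a cells were high and those of alpha cells low in every library. STE2, STE6, BAR1 and AGA2 summed to 739.8 to 1089.9 FPKM, and STE3, MF(ALPHA)1, MF(ALPHA)2 and SAG1 to 43.8 to 81.8 FPKM, with none of the 8 at 0. The pheromone genes MFA1 and MFA2 were on the marker list but had no values under these names.

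FAR3 message was at 52.13 and 48.98 FPKM in the WT cultures and at 2.09 and 3.31 FPKM in the UTP6-OE cultures. The mean fell from 50.6 ± 2.23 to 2.70 ± 0.86 FPKM (SD, n = 2 each), which left 5.34% of the WT level. On the scale of log2(FPKM + 0.5) the difference was -4.02. Both UTP6-OE cultures were low and far below the other 8 libraries. FAR3 had the lowest difference but 4 among 5768 tested features in this strain. In the WT libraries 38.8% and 36.0% of features lay below FAR3, against 1.56% and 2.62% in UTP6-OE.

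The FAR3 level in UTP6-OE was low but above 0. It corresponded to an estimated 11 fragments in the first culture (exact 95% Poisson interval 5.49 to 19.7) and 16 in the second (9.15 to 26.0), against 248 and 209 in WT. These intervals cover counting error only. In bulk RNA, fewer cells with a full level and less message in every cell cannot be told apart.

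FAR3 also lay below WT in the other strains, at far smaller distances. In culture order, LSM5-OE had 46.72 and 43.59 FPKM, TIF35-OE 39.14 and 39.45 FPKM and PRP22-OE 30.60 and 31.00 FPKM. These means were 89.3%, 77.7% and 60.9% of WT. Every one of the 8 overexpression cultures lay below both WT cultures, as was the case for 15.0% of all tested features. Taken by strain, both cultures lay below both WT cultures for 25.5% of features in LSM5-OE, for 49.3% in TIF35-OE and for 40.3% in PRP22-OE. All these comparisons share the same 2 WT cultures.

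**Figure D1:**
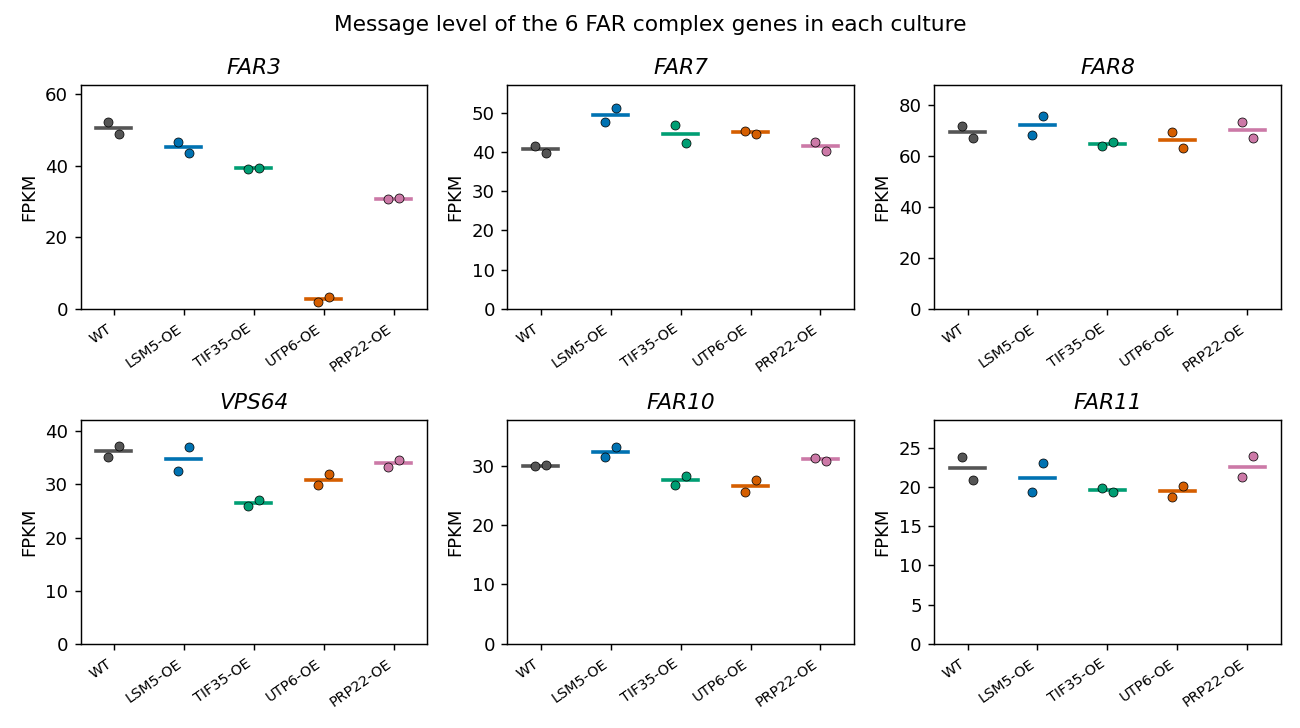
FPKM of the 6 members in the 10 libraries, with a panel per gene on a linear axis from 0, a point per culture and a line at the mean of each strain. FAR3 lies between 30.60 and 52.13 FPKM in 8 libraries and at 2.09 and 3.31 FPKM in UTP6-OE, while each partner stays within a narrow band.

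Tested with limma in a fit of all 10 libraries, FAR3 was lower in PRP22-OE, at -0.71 (SE 0.16, 95% interval -1.07 to -0.34, adjusted p = 0.0183), and in that strain 19.3% of features were called, 7.09% higher and 12.2% lower. This call was lost when either WT or either PRP22-OE culture was left out (adjusted p 0.0718 to 0.0972). The differences of -0.36 in TIF35-OE (95% interval -0.72 to 0.00, adjusted p = 0.119) and -0.16 in LSM5-OE (-0.52 to 0.20, adjusted p = 0.605) did not pass. The FAR3 loss that chose the set was read against the same WT cultures, so these tests against WT are not free of that choice. The shared error of FAR3 in this fit includes the spread of its low UTP6-OE values. In a fit without the UTP6-OE libraries, chosen after seeing the data, adjusted p was 0.00914 for TIF35-OE and 0.000693 for PRP22-OE. There 27.3% and 17.5% of features were called, respectively. With the 4 compared libraries alone, adjusted p was 0.0241 for TIF35-OE. With either UTP6-OE culture left out, the TIF35-OE difference stayed at -0.36. All these fits drop the UTP6-OE spread of FAR3 from the error, so they are not separate support.

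The FAR3 levels ran in the order WT, LSM5-OE, TIF35-OE, PRP22-OE and UTP6-OE. In the fit of all libraries, whose error holds the spread of the UTP6-OE values that chose the set, no 2 neighbours among the first 4 passed the threshold. LSM5-OE exceeded TIF35-OE by 0.20 on the log2 scale (95% interval -0.17 to 0.56, adjusted p = 0.431), and TIF35-OE exceeded PRP22-OE by 0.35 (-0.02 to 0.71, adjusted p = 0.189). The distance from LSM5-OE to PRP22-OE was 0.54 (0.18 to 0.91, adjusted p = 0.0992). In these contrasts 11.4%, 11.3% and 4.82% of features were called, respectively. In the fit without the UTP6-OE libraries the SE fell from 0.16 to 0.06. There TIF35-OE exceeded PRP22-OE (95% interval 0.20 to 0.49, adjusted p = 0.0227, with 8.17% of features called). LSM5-OE exceeded PRP22-OE as well (0.40 to 0.69, adjusted p = 0.00591, with 3.81% called). LSM5-OE and TIF35-OE did not pass (0.05 to 0.34, adjusted p = 0.0941, with 8.95% called). Nor did LSM5-OE and WT (-0.31 to -0.02, adjusted p = 0.194, with 5.84% called). The step from PRP22-OE to UTP6-OE, -3.32, includes the choosing value and has no test.

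None of the 5 partners was called changed in UTP6-OE against WT, where 29.1% of all tested features were called, 9.95% higher and 19.1% lower. Without adjustment, VPS64 and FAR10 were lower at p of at most 0.05. The share of all features lower at that unadjusted threshold was not computed and is at least the 19.1% called lower. The 2 are thus not read as a response of the partners. The median log2 difference of the partners was -0.18, against -0.07 over all features. No partner difference reached 0.25 in size, and the 95% intervals of the 5 together ran from -0.45 to 0.30.

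FAR7, the other small member, was at 41.63 and 39.74 FPKM in WT and at 45.44 and 44.57 FPKM in UTP6-OE. Both UTP6-OE values were above both WT values, as for 26.1% of features. The difference was 0.14 (SE 0.07, 95% interval -0.02 to 0.30, adjusted p = 0.154). After median-of-ratios scaling, which rescales each library so that its typical feature is level with the others, it became 0.21 and passed the threshold (adjusted p = 0.0474).

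FAR8, the striatin-like scaffold and the most abundant member, was at 71.77 and 67.06 FPKM in WT and at 69.14 and 62.98 FPKM in UTP6-OE. The cultures of the strains overlapped. The difference was -0.07 (SE 0.08, 95% interval -0.25 to 0.11, adjusted p = 0.519).

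VPS64, named for its role in vacuolar protein sorting, was at 35.14 and 37.25 FPKM in WT and at 29.79 and 32.01 FPKM in UTP6-OE. Both UTP6-OE cultures lay below both WT cultures, as for 45.0% of features. The difference was -0.23 (SE 0.08, 95% interval -0.41 to -0.04, adjusted p = 0.0659). It passed when either LSM5-OE culture was left out (adjusted p = 0.0325 each), and with the culture number as a block (0.0326).

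FAR10, its paralog, was at 29.91 and 30.13 FPKM in WT and at 25.52 and 27.51 FPKM in UTP6-OE. Both UTP6-OE cultures were again below both WT cultures, as for 45.0% of features. The difference was -0.18 (SE 0.06, 95% interval -0.32 to -0.03, adjusted p = 0.0721). FAR11, the STRIP-like member and the least abundant of the complex in WT, was at 23.81 and 20.93 FPKM in WT and at 18.73 and 20.16 FPKM in UTP6-OE. Its values did not overlap either, and the difference was -0.20 (SE 0.11, 95% interval -0.45 to 0.06, adjusted p = 0.216).

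**Figure D2:**
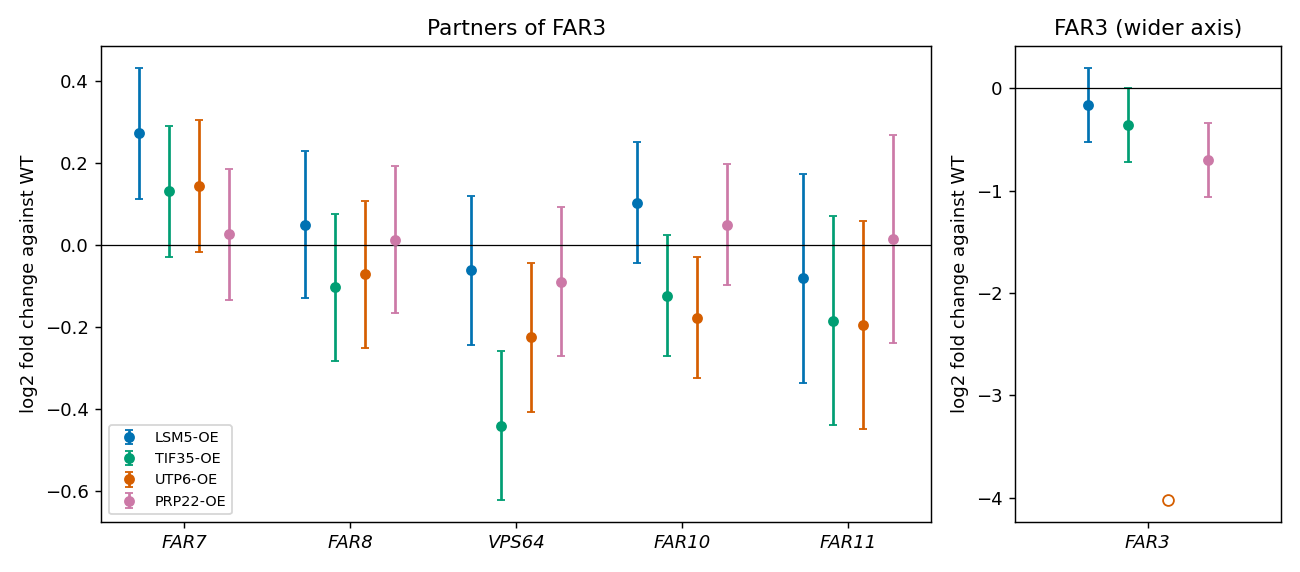
Log2 difference from WT of the partners (left) and of FAR3 (right, on a wider axis) in each overexpression strain, with bars for the 95% interval of the limma fit on log2(FPKM + 0.5). The open marker of FAR3 in UTP6-OE, at -4.02, has no interval because this value chose the gene set. The partners of UTP6-OE lie between -0.23 and 0.14.

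The partners in UTP6-OE were also set against the mean of the other 3 overexpression strains, a contrast that uses the WT cultures only through the shared error. FAR10 was lower, at -0.19 (SE 0.05, 95% interval -0.31 to -0.07, adjusted p = 0.0483), where 15.9% of features were called and 10.4% were lower. This call passed in only 5 of 20 alternatives, and its adjusted p ranged from 0.0330 to 0.295. It was lost with any single culture left out except the first LSM5-OE culture. The remaining partners did not pass. Their differences were 0.00 for FAR7 (95% interval -0.13 to 0.13, adjusted p = 0.996), -0.06 for FAR8 (-0.21 to 0.09, adjusted p = 0.607), -0.03 for VPS64 (-0.18 to 0.12, adjusted p = 0.829) and -0.11 for FAR11 (-0.32 to 0.10, adjusted p = 0.467).

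The clearest partner difference was found in another strain. In TIF35-OE, VPS64 was at 26.02 and 27.04 FPKM, below both WT cultures, as for 49.3% of features. It was lower than WT, at -0.44 (SE 0.08, 95% interval -0.62 to -0.26, adjusted p = 0.00619), or 73.3% of the WT mean in FPKM. In this strain 30.3% of features were called, 9.62% higher and 20.7% lower, and VPS64 was the only partner among them. The call kept its side of the threshold in 20 of 21 alternatives. It was lost when the FPKM were treated as counts with voom weights (adjusted p = 0.0503). FAR10, FAR8 and FAR11 were at -0.12, -0.10 and -0.18 in TIF35-OE and FAR7 at 0.13, and none of these passed. After median-of-ratios scaling FAR7 in TIF35-OE became 0.22 and passed (adjusted p = 0.0461), as it did in UTP6-OE.

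In LSM5-OE, FAR7 was at 47.54 and 51.05 FPKM, above both WT cultures, as for 24.1% of features. The difference of 0.27 (SE 0.07, 95% interval 0.11 to 0.43) had an adjusted p of 0.0548, where 7.65% of features were called, 4.7% higher and 2.95% lower. It passed after median-of-ratios scaling (0.0427) and over features of at least 400 bases (0.0416). The other partners differed from WT by amounts from -0.08 to 0.10 in LSM5-OE. In PRP22-OE no partner passed, and the differences ran from -0.09 for VPS64 to 0.05 for FAR10. The partner medians in these strains were 0.01 for PRP22-OE, -0.12 for TIF35-OE and 0.05 for LSM5-OE, beside -0.05, -0.10 and -0.01 over all features.

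FAR7 in the remaining libraries was at 46.95 and 42.36 FPKM in TIF35-OE and at 42.60 and 40.28 FPKM in PRP22-OE. FAR8 was at 68.08 and 75.75 FPKM in LSM5-OE, 63.87 and 65.25 FPKM in TIF35-OE and 73.10 and 67.08 FPKM in PRP22-OE. These cultures overlapped WT except in TIF35-OE, where FAR7 was above (as for 23.1% of features) and FAR8 below (as for 49.3%). VPS64 was at 32.44 and 37.00 FPKM in LSM5-OE and 33.33 and 34.62 FPKM in PRP22-OE. Both PRP22-OE cultures lay below both WT cultures, as for 40.3% of features. FAR10 was at 31.45 and 33.13 FPKM in LSM5-OE, 26.76 and 28.28 FPKM in TIF35-OE and 31.33 and 30.85 FPKM in PRP22-OE. TIF35-OE and UTP6-OE held the lowest FAR10 values, below both WT cultures, as for 49.3% and 45.0% of features. Both LSM5-OE cultures and both PRP22-OE cultures lay above both WT cultures, as for 24.1% and 24.4% of features. FAR11 was at 19.32 and 22.99 FPKM in LSM5-OE, 19.81 and 19.36 FPKM in TIF35-OE and 21.28 and 23.92 FPKM in PRP22-OE. Of these strains only TIF35-OE had both cultures below WT, as for 49.3% of features.

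Set against each other in contrasts added after seeing the data, LSM5-OE had more VPS64 than TIF35-OE and more FAR10 than UTP6-OE, by 0.38 (adjusted p = 0.0247) and 0.28 (adjusted p = 0.0188) on the log2 scale. TIF35-OE had less VPS64 than PRP22-OE, at -0.35 (adjusted p = 0.0317). In the contrast of LSM5-OE with UTP6-OE, 22.8% of features were called.

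Over the 10 libraries the highest FAR3 value was 24.9 times the lowest. For the partners this ratio was 1.20 for FAR8, 1.28 for both FAR7 and FAR11, 1.30 for FAR10 and 1.43 for VPS64. The SD of FAR3 on the log2 scale exceeded that of 98.7% of features, while those of the partners exceeded between 16.7% (FAR8) and 66.0% (VPS64). The range and SD of FAR3 include the UTP6-OE values that chose the set, so for FAR3 they are a description and not support. The estimated fragments behind a partner value ran from 199 for FAR7 to 1448 for FAR8.

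The loss of FAR3 changed the make-up of the set of messages. In WT, FAR8 ranked first in FPKM and FAR3 second, at 20.5% and 20.1% of the summed level of the 6 genes. FAR3 gave 19.0% and 16.5% of the sum for LSM5-OE, 17.6% and 17.8% for TIF35-OE and 13.2% and 13.6% for PRP22-OE. In UTP6-OE it gave 1.10% and 1.74% and ranked last. The partners together summed to 202 and 195 FPKM in WT and to 189 and 187 FPKM in UTP6-OE, with means of 198.7 ± 5.06 and 187.9 ± 0.98 FPKM (SD, n = 2). These sums were not rescaled between libraries, and the median log2 difference over all features in UTP6-OE was -0.07.

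FAR3 exceeded FAR7 in both WT libraries, by a ratio of 1.25 and 1.23. The ratio was 0.718 to 0.983 in LSM5-OE, TIF35-OE and PRP22-OE, and 0.0460 and 0.0743 in UTP6-OE. VPS64 and its paralog FAR10 stayed near each other in all libraries, with ratios from 0.956 to 1.24. The lowest of these were the TIF35-OE cultures.

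**Figure D3:**
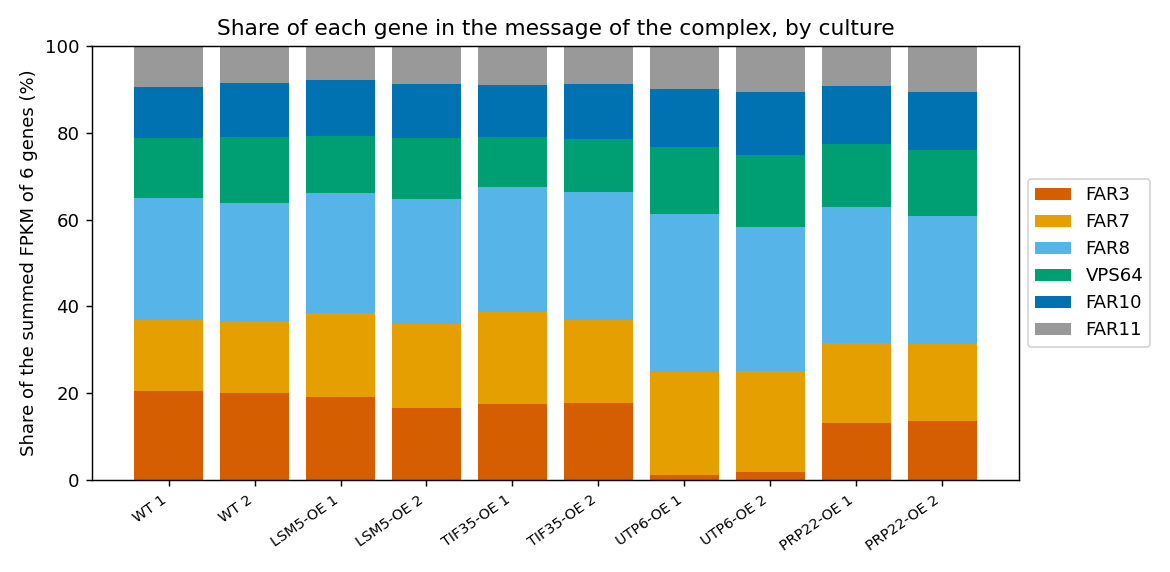
Share of each member in the summed FPKM of the 6 genes, in percent, with 1 stacked bar per library. FAR3 takes 20.5% and 20.1% in WT and 1.10% and 1.74% in UTP6-OE, and FAR8 holds the largest share in every library.

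The genes around FAR3 were read from the same fit to see how far along the chromosome the difference reached. STB2, the next gene downstream, encodes a protein known to bind the Sin3 corepressor and is convergent with FAR3. It was at 18.71 and 16.68 FPKM in WT and at 9.83 and 9.10 FPKM in UTP6-OE. It was lower there, at -0.87 (SE 0.09, adjusted p = 0.000376), and also lower in TIF35-OE, at -0.39 (adjusted p = 0.0158). It was at -0.25 in PRP22-OE (adjusted p = 0.0962) and at 0.06 in LSM5-OE (adjusted p = 0.759). STB2 and FAR3 do not overlap as reading frames, and whether reads were counted by strand is not given in the sources used here.

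Upstream, the measured neighbour was YMR050C, a gene of the Ty1 element. It was at 37.44 and 39.23 FPKM in WT and at 22.43 and 18.79 FPKM in UTP6-OE, lower, at -0.88 (SE 0.16, adjusted p = 0.00490). It was lower, at -0.66 in LSM5-OE (adjusted p = 0.0444), at -0.90 in TIF35-OE (0.00563) and at -0.95 in PRP22-OE (0.00525). Its reads may come from near-identical Ty1 copies elsewhere in the genome, so this level is uncertain as a value of the locus.

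Beyond these the changes went in both directions. FET3, a ferroxidase of iron uptake that starts 9236 bases after the FAR3 start, was lower in UTP6-OE, at -0.54 (adjusted p = 0.000115) and in TIF35-OE at -0.76. It was higher in LSM5-OE by 0.34 and in PRP22-OE by 0.32 (adjusted p = 0.00537 and 0.00231). BUB2, of the checkpoint on mitotic exit, was higher in UTP6-OE by 0.29 (adjusted p = 0.0222), a call lost without the first WT culture or either UTP6-OE culture, or with voom weights on FPKM (adjusted p 0.0634 to 0.141). ERB1, a ribosome biogenesis factor, was at 0.13 (adjusted p = 0.161), STV1, a subunit of the vacuolar-type ATPase, at -0.13 (adjusted p = 0.161) and AAC1, a mitochondrial ADP/ATP carrier, at 0.09 (adjusted p = 0.798).

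**Figure D4:**
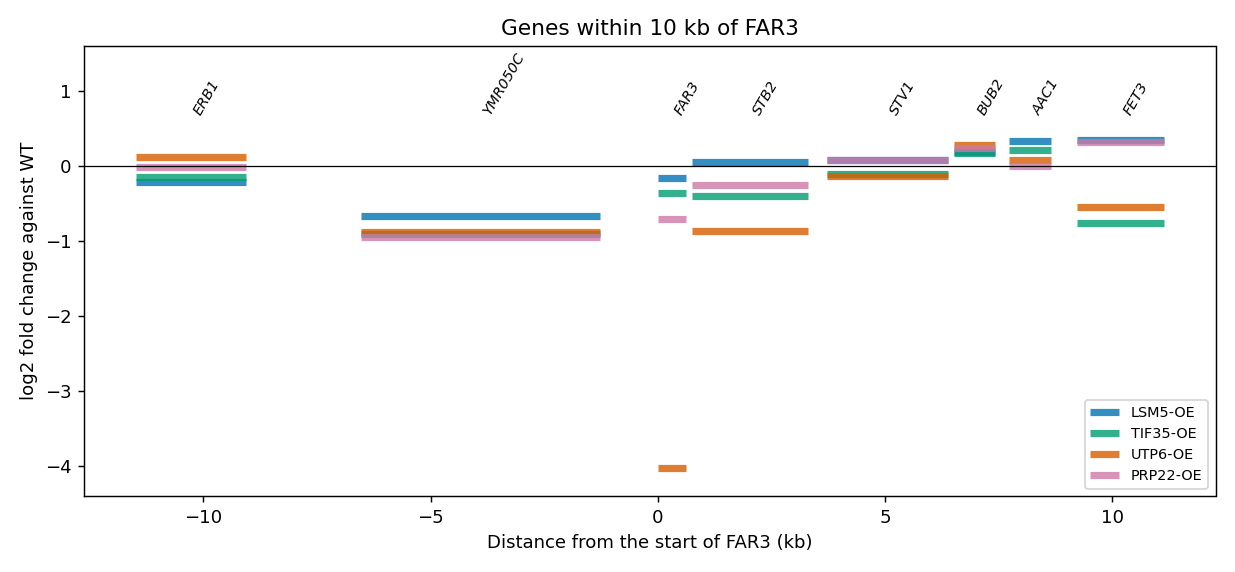
Log2 difference from WT of the measured genes within 10 kb of FAR3 against the distance from the FAR3 start in kb, with a bar over the extent of each gene for each overexpression strain. FAR3 stands at -4.02 in UTP6-OE, while its neighbours in that strain lie between -0.88 (YMR050C) and 0.29 (BUB2).

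Features whose pattern over the 10 libraries was most like that of FAR3 were found by the Euclidean distance of centred log2 values. The 5 nearest were PHO89, a sodium-phosphate symporter (distance 2.71), TIS11, an RNA-binding protein of iron shortage (2.77), the little characterised YJL213W (2.81) and YMR085W (2.83), and AIM26 (2.88). A feature with no variation at all would lie at 4.78, and 3146 features were nearer than that, so none of the 5 is a close match. PHO89 went from 31.65 and 26.25 FPKM in WT to 4.52 and 5.21 FPKM in UTP6-OE, and TIS11 from 90.97 and 91.97 to 19.10 and 20.93 FPKM. Their differences in UTP6-OE, -2.45 and -2.17, were smaller than the -4.02 of FAR3. In PRP22-OE, on the other hand, PHO89 was at -1.58 and TIS11 at -1.06, beyond the -0.71 of FAR3. These resemblances are a description over 10 libraries without a test, and AIM26 has only 357 bases, a length at which low FPKM are less certain.

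The functions with which the Far complex is known to work were read from lists of genes, each beside the 9.95% of features called higher and the 19.1% called lower in UTP6-OE. Of 14 phosphatase genes, none rose, 4 fell and 10 did not pass. RRD1, an activator of PP2A-type phosphatases, went from 106.48 and 102.80 to 78.08 and 69.09 FPKM, a difference of -0.51 (SE 0.11, adjusted p = 0.0111). Its relative RRD2 was lower, at -0.38, the regulatory subunit RTS1 at -0.24 and the PP2A-like catalytic subunit SIT4 at -0.17. The 10 that did not pass were TPD3, PPH21, PPH22, CDC55, PPG1, PPH3, PSY2, PSY4, TIP41 and TAP42. The list median was -0.13, beside -0.07 over all features.

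Of 14 genes of TORC2 and its kinases, 1 rose and 5 fell. YPK1, the main kinase activated by TORC2, went from 220.26 and 221.20 to 148.11 and 155.28 FPKM, a difference of -0.54 (SE 0.05, adjusted p = 0.000174). FPK1, a kinase that controls lipid flippases, was lower, at -0.53, the TORC2 subunit AVO2 at -0.38 and the kinase PKH2 at -0.36. YPK2, the paralog of YPK1, was the gene that rose, by 0.27. YPK2 was also the only gene of the list called higher in LSM5-OE, TIF35-OE and PRP22-OE. The highest difference of the list in these strains was 0.52, 0.50 and 0.64, respectively. The list median was -0.19.

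Of 21 genes of pheromone signalling and arrest, 3 rose, 8 fell and 10 did not pass, with a median of -0.11. FAR1, which inhibits the G1 cyclin kinase during arrest, went from 68.46 and 73.02 to 56.97 and 57.42 FPKM, a difference of -0.30 (SE 0.07, adjusted p = 0.0171). STE18, the gamma subunit of the pheromone G protein, was lower, at -0.88, the phosphatase PTP3 at -0.36 and the exchange factor CDC24 at -0.35. STE18 has only 333 bases. The receptor gene STE2, the G protein gene GPA1 and the regulator DIG2 were the 3 that rose. Among the marker genes, STE2 was at 505.61 and 484.82 FPKM in WT and 580.37 and 610.81 FPKM in UTP6-OE, and the 4 a-cell markers summed to 856 to 971 FPKM in WT and 1042 to 1090 FPKM in UTP6-OE. AGA2, at 104.19 and 242.23 FPKM in WT and 270.64 and 181.86 FPKM in UTP6-OE, varied widely between cultures. STE6 (0.04, adjusted p = 0.728) and BAR1 (-0.03, adjusted p = 0.742) did not pass the test. The 4 alpha-cell markers summed to 65.6 to 74.0 FPKM in WT and 43.8 to 51.3 FPKM in UTP6-OE. The part of the markers in the list's values was not tested.

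Of 10 genes of G1 cyclins and Start, 1 rose and 3 fell, with a median of -0.11. CLN3, the cyclin that begins Start, went from 89.84 and 88.23 to 57.89 and 50.65 FPKM, a difference of -0.71 (SE 0.10, adjusted p = 0.00172). BCK2, which acts beside CLN3, was lower, at -0.58 and the cyclin CLN1 at -0.47, and SIC1, an inhibitor of S-phase cyclin kinase, was higher by 0.38. Of 9 genes of mitophagy and checkpoint recovery, none rose and 2 fell, with a median of -0.09. The checkpoint kinase RAD53 went from 13.91 and 15.08 to 10.49 and 9.70 FPKM, a difference of -0.50 (SE 0.11, adjusted p = 0.0123), and CKA2, a catalytic subunit of casein kinase, was lower, at -0.20.

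Most of the named falls were called in other strains too. Over all features 20.7% were called lower in TIF35-OE and 12.2% in PRP22-OE. CLN3 was lower, at -0.71 in TIF35-OE and at -0.35 in PRP22-OE, YPK1 at -0.29 and -0.39, SIT4 at -0.29 and -0.19 and FAR1 at -0.64 and -0.26, each past the threshold. BCK2 (-0.57), RAD53 (-0.51), PTP3 (-0.48), CLN1 (-0.45), PKH2 (-0.39), RRD2 (-0.27), CDC24 (-0.24) and CKA2 (-0.22) were also called lower in TIF35-OE. RRD2 (-0.52), RRD1 (-0.42) and AVO2 (-0.29) were called lower in PRP22-OE. Of the named falls, those of RTS1, FPK1 and STE18 passed in UTP6-OE alone. In LSM5-OE the only call in the 5 lists was YPK2, which was higher by 0.52. Of the named list genes, YPK1, CLN3, BCK2 and CLN1 kept their calls in UTP6-OE under all 20 alternatives, and each other one lost it under at least 1. Without the first or the second WT culture, or the first or the second UTP6-OE culture, 0 to 1 phosphatase genes were called lower, 2 to 3 of TORC2, 1 to 2 of pheromone arrest, 3 of G1 and 0 to 1 of mitophagy and checkpoint. With voom weights on the FPKM, the pheromone list had 1 gene called lower and the phosphatase list 1.

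**Figure D5:**
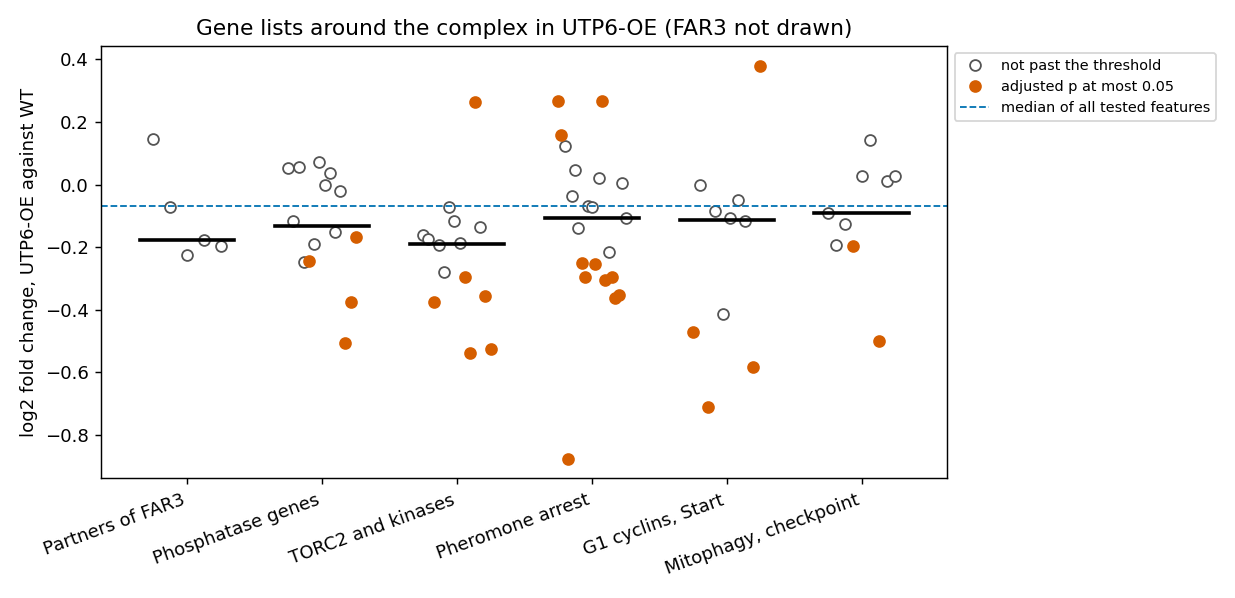
Log2 difference from WT in UTP6-OE of the partners and the genes of the 5 lists, with a point per gene, filled where adjusted p was at most 0.05, black lines at the medians and a dashed line at the median of all tested features. The list medians lie between -0.19 and -0.09, beside -0.07 over all features.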

How the data were processed

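RNA of 2 cultures of each of 5 strains was measured. The deposited values were FPKM, made by the authors, with 1 column per culture. A second table, labelled as raw reads, was identical to the first in all 58240 cells. The labels name STAR, RSEM, edgeR and limma, whereas the methods of the study name HISAT2, featureCounts and DESeq2, and what computed the FPKM is not given in the sources used here. Since the values are not counts, no count test was run.

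Features averaging 1 FPKM or more (5768) were taken as log2(FPKM + 0.5) into limma 3.58.1 (R 4.3.3), using eBayes with a trend and strain as the only term over all 10 libraries. This left 5 residual degrees of freedom. Two-sided tests were used, and in each contrast Benjamini-Hochberg adjustment ran over all features, with a threshold of 0.05. Samples were grouped by their labelled genotype, and n = 2 limits every error given. Contrasts of 2 overexpression strains were added after seeing the data.

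The members and gene lists were chosen with earlier results of these data known. Named were the 6 members, the measured genes within 10 kb of FAR3, the 5 features nearest to its pattern, the mating-type markers, the plasmid genes and, in each list, up to 4 genes with the largest difference in UTP6-OE among those called with both cultures beyond WT. YPK2, GPA1, DIG2 and the phosphatase genes that did not pass fall outside this rule. They were named after their values were seen.

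Depth was estimated from the steps between low FPKM. In the libraries, 71.4% to 89.4% of such values came within 0.15 of whole fragments, where chance gives 30% for a fixed step. The step was fitted to these same values, so 30% is not its chance level and this share does not test the estimated depth. The estimated fragment length was 308 to 314 bases in 7 libraries and 281 to 283 bases in the first TIF35-OE, first UTP6-OE and second PRP22-OE culture. Fits were tested on simulated data. Alternatives were other pseudocounts, filters and scalings, voom weights, only the libraries compared, a culture number block, and each culture left out. Positions and sequences are from RefSeq R64, to which 5775 of the 5824 feature IDs were matched. Tables and figures were made in Python 3.11.15 (matplotlib 3.10.9, numpy 2.4.6, pandas 2.3.3, scipy 1.17.1).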

Additional observations from a re-analysis of the deposited data

Results flagged for a closer look

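The following 3 differences between overexpression strains passed the test of the difference itself, in contrasts added after seeing the data. VPS64 was higher in LSM5-OE than in TIF35-OE by 0.38 on the log2 scale (95% interval 0.20 to 0.56, adjusted p = 0.0247), where 11.4% of features were called. VPS64 was at 32.44 and 37.00 FPKM in LSM5-OE and at 26.02 and 27.04 FPKM in TIF35-OE. VPS64 was likewise lower in TIF35-OE than in PRP22-OE, at -0.35 (95% interval -0.53 to -0.17, adjusted p = 0.0317), where 11.3% of features were called. Both contrasts share the TIF35-OE cultures. FAR10 was higher in LSM5-OE than in UTP6-OE by 0.28 (95% interval 0.13 to 0.43, adjusted p = 0.0188), where 22.8% of features were called.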

How the results depend on the processing

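The percent of FAR3 left in UTP6-OE stayed between 4.13 and 6.55 under 6 alternatives. With 2 cultures per strain, FPKM and no counts, small differences of the partners were limited by precision, and leaving out a culture of the compared strains left 1 sample, assumed to vary like the others. The cause of the following changes was not tested.

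The counts of called features were lower with voom weights on FPKM, which gave 207 instead of 441 in LSM5-OE, 948 instead of 1748 in TIF35-OE, 1111 instead of 1678 in UTP6-OE, 725 instead of 1114 in PRP22-OE and 477 instead of 916 for UTP6-OE against the other overexpression strains. A fit of only the compared libraries gave 66 in LSM5-OE. With each culture left out, the counts were 82 to 360, 721 to 2017, 864 to 1908, 518 to 1255 and 288 to 980, in the same order.

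FAR3 in TIF35-OE passed the threshold with voom weights on FPKM (-0.32, adjusted p = 0.0434), with only the compared libraries (-0.36) and without the UTP6-OE libraries (-0.36), and ranged from -0.40 to -0.31 with a culture left out. FAR3 in PRP22-OE ranged from -0.75 to -0.66 with a culture left out. FAR7 in UTP6-OE was 0.21 after median-of-ratios scaling. VPS64 in UTP6-OE ranged from -0.28 to -0.17 with a culture left out.

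For UTP6-OE against the other overexpression strains, FAR10 no longer passed with no filter, only the compared libraries, or features of at least 400 bases (-0.19 each, adjusted p = 0.0507, 0.0857 and 0.0519), nor with voom weights on FPKM (-0.19, 0.176) or on the estimated fragments (-0.19, 0.107). It ranged from -0.24 to -0.13 with a culture left out. FAR7 turned to -0.0059 with voom weights on FPKM and ranged from -0.024 to 0.025 with a culture left out, FAR8 from -0.13 to 0.0085 and VPS64 from -0.079 to 0.023.

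Culture numbers were not taken to pair the samples in the main fit. Differences of the first and second culture correlated with r from -0.36 to 0.43 over 10 pairs of strains, and the source of these correlations was not tested. The libraries of shorter estimated fragments were of both culture numbers, and no fit had fragment length as a term. With the replicate block, VPS64 in UTP6-OE passed at -0.23 (adjusted p = 0.0326), FAR10 against the other overexpression strains did not at -0.19 (0.0519), and 1574 features were called in UTP6-OE.

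Several differences that were not called changed sign when a culture was left out. In LSM5-OE these were FAR8 (-0.027 to 0.13), VPS64 (-0.16 to 0.032) and FAR11 (-0.20 to 0.041), and in PRP22-OE FAR7 (-0.014 to 0.066), FAR8 (-0.048 to 0.075) and FAR11 (-0.076 to 0.11). In UTP6-OE they were AAC1 (-0.11 to 0.29), AGA2 (-0.13 to 1.09), BAR1 (-0.058 to 0.0067, and 0.044 after median-of-ratios scaling), STE6 (-0.00034 to 0.079) and TIF35 (-0.010 to 0.091).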

Other observations

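Of the 4 features with a lower difference than FAR3 in UTP6-OE, ZPS1, a cell wall protein of zinc shortage, was the one of ordinary length. It was at 839.70 and 814.94 FPKM in WT and at 30.00 and 30.21 FPKM in UTP6-OE. The others were the small nucleolar RNA snR44, listed at 101.41 and 196.33 FPKM in WT and at 0 in both UTP6-OE cultures, and the short genes MIN7 and CMC4, of 204 and 294 bases, each listed at 0 in 1 UTP6-OE culture. FAR3, of 615 bases, was not listed at 0 in any library.

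The alpha-type marker SAG1, the alpha agglutinin, was at 24.20 and 25.40 FPKM in WT and at 16.92 and 17.26 FPKM in UTP6-OE, a difference of -0.52 (adjusted p = 0.00249). It was also lower in TIF35-OE, at -0.41 and in PRP22-OE at -0.39 (adjusted p = 0.00872 and 0.0127).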
